A study of Rattus norvegicus with 52 samples.

Results

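The genes described are the integrin and laminin subunits of rat mammary cells. They were taken as every symbol of the count files that begins with Itga, Itgb, Lama, Lamb or Lamc followed by a digit or by d, e, l, m, x or v. This gave the 31 genes described here, of 17356. Of these, 27 are subunits, 20 of them integrin chains and 7 laminin chains. The other 4, Itgb1bp1, Itgb1bp2, Itgb3bp and Itgbl1, carry an integrin symbol without being a subunit. Itga2 (the Cd49b antigen used in the sort), Itga2b, Itga3, Itga9, Itgav, Itgax, Lama2, Lama3, Lamb1 and Lamb4 were not analysed here, which leaves the partner chain of several subunits out.

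The 48 RNA-seq libraries were made from mammary cells sorted from female rats. At 9 weeks, 16 libraries came from virgin ACI rats, Cdkn1b+/+ or Cdkn1b-/-, with 2 per genotype in each of 4 populations: basal cells (Cd24+ Cd29HIGH), mature luminal cells (Cd24+ Cd29LOW Cd49b- PNA-), and luminal progenitors (LP, Cd24+ Cd29LOW) sorted as PNA+ or as Cd49b+. At 4 weeks (11 libraries) and 6 weeks (9 libraries), basal and undivided luminal cells (Cd24+ Cd29LOW) came from ACI rats of both genotypes. The study gives each of these cohorts as a range of ages, so age may differ within a cohort and between its genotypes. The E2 experiment gave basal and luminal libraries (12 in all) of ACI and BN rats with an empty implant or one releasing estradiol (E2), with 2 ACI libraries and 1 BN library, whose label carries 2 animal numbers, under each treatment and population. The labels of its luminal libraries also carry CD49b and PNA. How these were gated is not stated, so they may differ from the luminal cells of the other experiments. Cdkn1b encodes p27, an inhibitor of cyclin-dependent kinases, and the deletions were made in Sprague-Dawley zygotes by CRISPR-Cas9 and crossed onto ACI, so both genotypes may keep Sprague-Dawley sequence. The deletion is in the germline, so differences between genotypes are those of the whole animal. That libraries of a group came from separate animals is not stated for every group, so p-values measure the spread between these libraries. PNA is peanut agglutinin, a lectin.

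Integrins are receptors made of an alpha and a beta subunit that tie a cell to the matrix. Laminins are trimers of an alpha, a beta and a gamma chain, and are the main adhesive protein of the basement membrane. In the mammary gland the basal, or myoepithelial, cells lie on that membrane and luminal cells face the duct, and the integrin of Itga6 with Itgb4 anchors epithelial cells to the laminin that contains Lamb3 through hemidesmosomes. Both Cd29, the product of Itgb1, and Cd49b, the product of Itga2, were sorting antigens, so levels of Itgb1 between basal and luminal cells are partly set by the gate and are given as a description.

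Promoter windows are shown for the subunits that led the contrast of basal with luminal cells, those above 2 on the log2 scale against both mature luminal cells and LP at 9 weeks. There were 4, Itgb6, Lama1, Lamb3 and Lamc1, and RefSeq windows on GRCr8 were found for all 4 and for 19 of the 27 subunits. Each window runs from 250 bases before to 50 bases after the gene's start, 5′ to 3′ on the gene's strand. The windows are chr3:65530284-65530583 (minus strand) for Itgb6, chr9:115139298-115139597 (plus) for Lama1, chr13:107362303-107362602 (plus) for Lamb3 and chr13:68051937-68052236 (minus) for Lamc1. Capitals mark the GC box GGGCGG on either strand.
Itgb6: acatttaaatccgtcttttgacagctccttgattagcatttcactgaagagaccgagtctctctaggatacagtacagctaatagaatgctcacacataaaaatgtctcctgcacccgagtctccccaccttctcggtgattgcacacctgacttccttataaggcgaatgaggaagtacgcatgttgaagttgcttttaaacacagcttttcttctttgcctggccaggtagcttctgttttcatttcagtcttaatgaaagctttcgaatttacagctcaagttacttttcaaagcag
Lama1: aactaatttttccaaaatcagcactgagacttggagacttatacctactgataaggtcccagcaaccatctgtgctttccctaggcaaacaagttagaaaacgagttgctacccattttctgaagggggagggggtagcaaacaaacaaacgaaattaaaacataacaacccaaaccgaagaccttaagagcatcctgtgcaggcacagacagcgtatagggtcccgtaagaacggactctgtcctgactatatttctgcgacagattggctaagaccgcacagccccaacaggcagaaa
Lamb3: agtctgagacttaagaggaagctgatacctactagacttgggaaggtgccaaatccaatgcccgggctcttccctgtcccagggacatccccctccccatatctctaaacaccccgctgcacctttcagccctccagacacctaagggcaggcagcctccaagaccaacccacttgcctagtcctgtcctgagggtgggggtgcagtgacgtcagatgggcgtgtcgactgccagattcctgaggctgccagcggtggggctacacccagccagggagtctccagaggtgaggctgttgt
Lamc1: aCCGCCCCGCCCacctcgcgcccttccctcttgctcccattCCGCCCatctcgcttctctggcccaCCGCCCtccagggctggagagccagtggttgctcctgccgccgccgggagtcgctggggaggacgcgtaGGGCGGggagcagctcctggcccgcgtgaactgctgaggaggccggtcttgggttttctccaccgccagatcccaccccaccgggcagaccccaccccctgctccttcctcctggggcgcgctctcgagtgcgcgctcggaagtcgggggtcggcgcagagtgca
The windows of Itgb6, Lama1 and Lamb3 held no GC box and were 41.7%, 45.7% and 59.3% G or C. The Lamc1 window was 71.7% G or C and held 5 GC boxes, of which the first pair overlap. A GC box was found in 33.1% of all 33469 RefSeq windows and in 9 of the 19 windows of subunits. The motifs TGANTCA (AP-1) and GGAATG (TEAD), read on both strands, were found in 7.33% and 14.2% of all windows. TGANTCA was in none of the 4 windows shown, and GGAATG was in that of Lamc1 alone.

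The libraries held 7985619 to 33859550 reads on genes, the fewest at 6 weeks. Levels are CPM, a gene's counts relative to the library's total, scaled by TMM within an experiment (4 and 6 weeks together), so levels of different experiments are not on one scale. Lengths of transcripts were not used here, so levels are compared within a gene only. Cdkn1b itself lay between 1.8 and 4.61 CPM in the 8 Cdkn1b-/- libraries of 9 weeks and between 6.15 and 15.7 CPM in the 8 Cdkn1b+/+ libraries. At 4 weeks the Cdkn1b-/- libraries held 5.19 to 18.8 CPM and the Cdkn1b+/+ libraries 14.3 to 41.4 CPM, and the highest of the former, the library labelled Cdkn1b-/- luminal 1, lay above 2 of the 3 Cdkn1b+/+ luminal libraries. At 6 weeks the library labelled Cdkn1b-/- luminal 2 held 36.7 CPM and the library labelled Cdkn1b+/+ basal 3 held 3.48 CPM, so 2 of 9 libraries went against their labels by this measure, although short deletions leave much of the transcript to be counted. The library labelled Cdkn1b-/- luminal 2 also held 1130 CPM of the fibroblast gene Dcn, and Cdkn1b+/+ basal 3 held 92.6 CPM of the myeloid gene Tyrobp. In the E2 experiment, the first basal library of ACI E2 held 54.4 CPM of Krt14 and 0.559 of Krt18, against 362.3 to 4328 and 22.6 to 268.2 in the other basal libraries. At 9 weeks the label mature luminal went against some of its markers: Esr1 lay between 3.63 and 10.5 CPM in mature luminal and between 6.79 and 21.4 in LP libraries, and Elf5, a progenitor gene, between 82.0 and 105.3 in mature luminal and between 39.0 and 85.6 in LP libraries. Basal libraries of 9 weeks carried 5108 to 8883 CPM of Krt14, and luminal ones 50.7 to 523.6.

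Basal cells of 9 weeks were compared with mature luminal cells first. Of 26 subunits tested (Itgad had too few counts), 13 passed an adjusted p of 0.05 in edgeR's quasi-likelihood test, and all 13 were higher in basal cells. Of all 12809 genes tested, 38.7% passed and 20.4% were higher in basal cells. The median log2 fold change was 0.90 over the subunits tested and -0.04 over all genes. The laminin chains led: 6 of the 7 tested rose in basal cells, and Lama4 was the exception. Of the 6, Lamb2 lost its call in 13 of 22 alternatives, RLE scaling among them, and Lamc3 in 6, with a log2 fold change from 1.11 to 3.6. The 7 genes of a fibroblast list summed to 521.3, 2274, 2689 and 3284 CPM in basal, 115.1 to 953 CPM in mature luminal and 197.6 to 1411 CPM in LP libraries, and the part of these cells in the result was not tested. In bulk sorted cells, more cells of a type and more RNA per cell cannot be told apart.

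Lamb3, the beta chain of the hemidesmosomal laminin, held 580.7 and 931.7 CPM in Cdkn1b+/+ basal libraries, 710.8 and 1002 CPM in Cdkn1b-/- basal libraries, and 6.02, 10.9, 18 and 25 CPM in mature luminal libraries. Every basal library lay above every mature luminal one. In log2 terms basal cells were higher by 5.75 (standard error, SE, 0.86, adjusted p = 0.000179 from edgeR).

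Lama1, an alpha chain of basement membrane laminin, held 68.9, 83, 84.5 and 144.2 CPM in basal libraries and between 0.605 and 1.79 CPM in mature luminal libraries. Its log2 fold change of 6.58 (SE 1.02, adjusted p = 0.000235) was the largest of the subunits. Lamc1, the gamma chain of most laminins, held 577, 586.5, 658.7 and 763.8 CPM in basal and between 40.7 and 61 CPM in mature luminal libraries. The 4 values of each population lay close together, and the adjusted p of Lamc1 was the lowest of the subunits (log2 fold change 3.73, SE 0.37, adjusted p = 9.14e-06). Lama5, Lamb2 and Lamc3 rose by log2 fold changes of 2.35, 1.22 and 2.35, with adjusted p-values of 2.42e-05, 0.046 and 0.0183. The groups overlap for Lamb2 and Lamc3.

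Among the integrin beta subunits, Itgb6, the partner of the alpha v chain in an epithelial receptor for fibronectin and latent TGF-beta, stood out. It held 161.8, 177.7, 180.8 and 183.5 CPM in basal libraries and 2.02, 2.26, 2.42 and 4.8 CPM in mature luminal libraries. The spread between basal libraries was small (175.9 ± 9.75 CPM, SD, n = 4) and the log2 fold change was 5.98 (SE 0.80, adjusted p = 7.85e-05). Itgb1, which pairs with most alpha chains and carries the Cd29 antigen of the gate, held 710.6, 826.7, 857 and 939.3 CPM in basal and 298.4, 333.9, 421.9 and 558 CPM in mature luminal libraries. Basal and mature luminal libraries did not overlap, with a log2 fold change of 1.06 (SE 0.24, adjusted p = 0.00346). Itgb5, a vitronectin receptor chain, was higher by 0.75 (adjusted p = 0.0111). Itgb4 did not pass: basal libraries held 332.8, 374.6, 488.4 and 524.8 CPM and mature luminal ones 151.5, 279.5, 326.9 and 478.9 CPM, and the log2 fold change of 0.48 has a 95% interval from -0.31 to 1.26. Itgb3 and Itgb8 did not pass either.

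Of the alpha subunits, both measured laminin-binding ones, Itga6 and Itga7, rose in basal cells. Itga6, which pairs with Itgb1 or Itgb4, held 380.9, 431.4, 457.6 and 492.4 CPM in basal and 125, 154.5, 172.2 and 343.7 CPM in mature luminal libraries. The groups did not overlap (log2 fold change 1.20, SE 0.28, adjusted p = 0.00425). Itga1, a collagen-binding chain, was 11.3 times higher (27.7 ± 9.92 against 2.45 ± 0.486 CPM, SD, n = 4 each, adjusted p = 0.000232), and Itga5, the fibronectin receptor chain, was higher by 1.64 on the log2 scale (adjusted p = 0.0177). None of the 5 leukocyte subunits tested (Itgae, Itgal, Itgam, Itgb2 and Itgb7) passed. By groups that do not overlap, 11 subunits were higher in basal cells and none lower, against 32.2% of all genes in either direction. Without Cdkn1b+/+ mature luminal library 1 the 13 calls came to 9 (31.2% of all genes), and with Cdkn1b+/+ libraries only in the contrast to 8 (20.9%), which were Itga1, Itga6, Itgb1, Itgb6, Lama1, Lama5, Lamb3 and Lamc1.

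**Figure D1:**
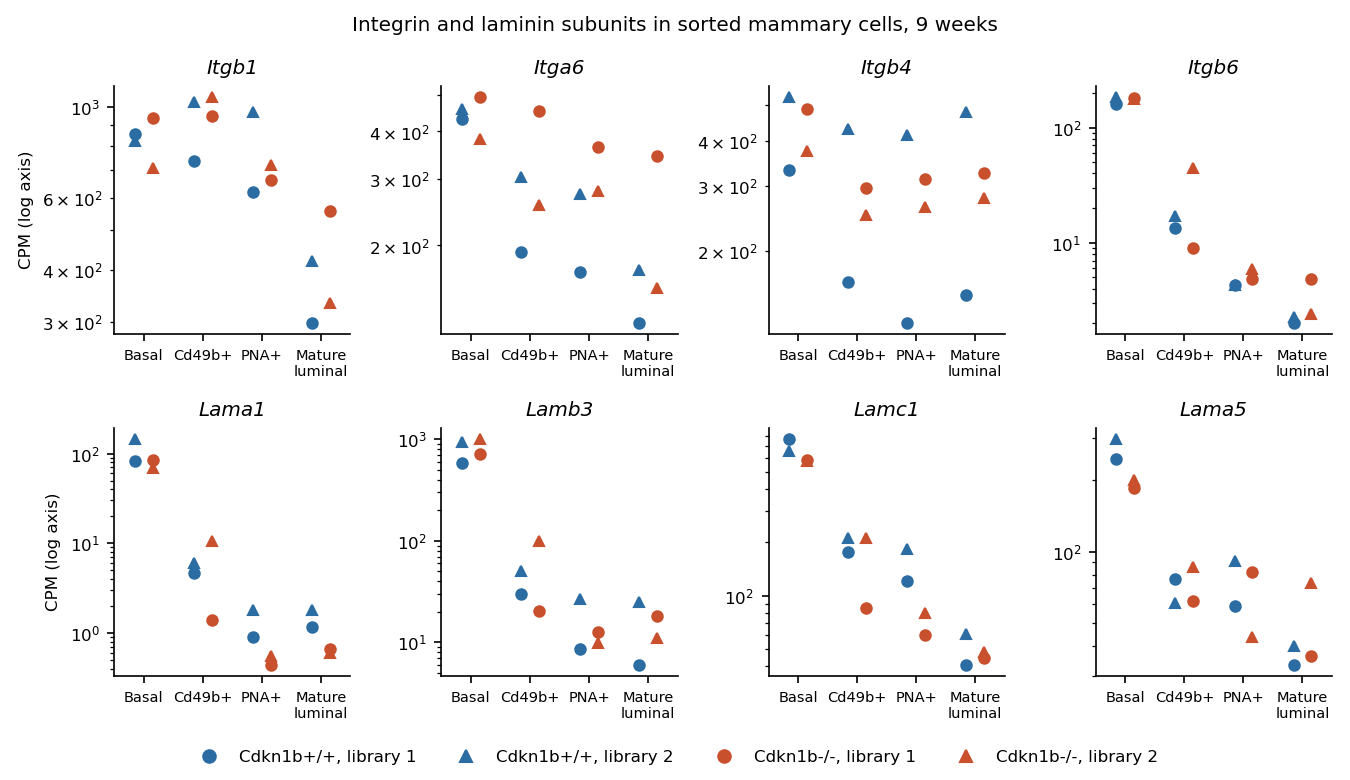
Level of 8 subunits in each library of 9 weeks (CPM, log axis with a range of its own in each panel), by population, genotype (colour) and library number (shape). Itgb6, Lama1, Lama5, Lamb3 and Lamc1 were higher in the 4 basal libraries than in any other, while Itgb1 was as high in progenitors as in basal cells and Itgb4 overlapped throughout.

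Basal cells were then compared with LP. Of 26 subunits, 10 passed and all were higher in basal cells, where 50% of all genes passed and 27% were higher. Lama1 led with a log2 fold change of 4.82 (SE 0.69, adjusted p = 8.16e-05), followed by Lamb3 at 4.65 (SE 0.61, adjusted p = 4.33e-05). Itgb6 followed at 3.80, and Lamc1 and Lama5 at 2.23 and 1.71. The lowest, median and highest of the 8 LP libraries were 8.52, 23.6 and 99.7 CPM for Lamb3 and 4.29, 7.46 and 44.9 CPM for Itgb6. The highest was Cdkn1b-/- Cd49b+ library 2 for both genes, and it stayed under every basal library. Itga6, Itga11, Itgae, Itgam and Itgb5 were the other subunits that passed, and Itgam was under 1 CPM throughout.

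Itgb1 did not separate basal cells from LP, although the sort took basal cells as Cd29HIGH and LP as Cd29LOW. Its RNA ranged from 621 to 1053 CPM with a median of 841.6 in the 8 LP libraries, against 710.6 to 939.3 CPM in basal libraries. The log2 fold change of basal over LP was -0.01 with a 95% interval from -0.42 to 0.39 (adjusted p = 0.959). RNA was measured here, and the level of Cd29 protein on the cells was not analysed here.

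LP were then compared with mature luminal cells, both Cd29LOW. Of 26 subunits, 10 passed, 7 higher and 3 lower in LP, and 23.4% of all genes passed, 11.7% in each direction. Itgb1 was higher in LP by a log2 fold change of 1.07 (SE 0.22, adjusted p = 0.00511), and its lowest LP library, at 621 CPM, was over the highest mature luminal library, at 558 CPM. Itga5 was the other subunit whose groups did not overlap in this direction, with 24.7 to 145.1 CPM in LP and 13.3 to 21.7 CPM in mature luminal cells (log2 fold change 1.93, SE 0.46, adjusted p = 0.0102). Itga1, Itga7, Itgb6, Lamc1 and Lamc3 were higher by 2.5, 2.33, 2.18, 1.5 and 1.99. The 3 lower ones, Itga11, Itgal and Itgam, lay under 4 CPM in every library of 9 weeks but 2 basal ones for Itga11. Lamb3, which was among the leading genes of basal cells, did not pass (log2 fold change 1.10, adjusted p = 0.231). Non-overlap was seen for 2 subunits upward and 1 downward, against 11.8% of all genes.

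Some of these LP values moved with markers of other cells. The 7 genes of an endothelial list (Pecam1, Cdh5, Kdr, Tek, Emcn, Cldn5 and Vwf) were all detected in every library of 9 weeks, and summed to 71.2 to 91.9 CPM in mature luminal libraries. In Cdkn1b+/+ LP they summed to 312.2 and 569.8 CPM (PNA+) and to 438.5 and 596.8 CPM (Cd49b+), and in Cdkn1b-/- LP to 113.3 and 231.2 CPM (PNA+) and to 210.8 and 709.3 CPM (Cd49b+). Itga1 followed the same order of groups, with 10.7, 19.7, 20.8 and 23.7 CPM in Cdkn1b+/+ LP and 2.97, 6.6, 8.78 and 22.9 CPM in Cdkn1b-/- LP. The 2 Cdkn1b-/- PNA+ libraries, lowest in the endothelial list together with Cdkn1b-/- Cd49b+ 1, were also lowest for Itga1, Itga5, Lamc1 and, with that library, for Itga7. Itgb1 and Itgb6 did not follow this order. Itgb1 was lowest in Cdkn1b+/+ PNA+ library 1 (621 CPM), under Cdkn1b-/- PNA+ libraries (661.9 and 722.8 CPM). Itgb6 was lowest in both Cdkn1b+/+ PNA+ libraries (4.29 CPM each), under Cdkn1b-/- PNA+ libraries (4.84 and 5.97 CPM). Endothelial cells express several of the subunits called here, and the part of the endothelial signal in the result was not tested. Only Cdkn1b-/- PNA+ libraries were then set against Cdkn1b-/- mature luminal libraries (2 against 2, chosen after the data were seen). None of 11336 genes passed (0.0%), so none of the 10 calls could remain. With so few libraries, the loss of these calls says nothing about a cause. The log2 fold change went from 1.07 to 0.66 for Itgb1, from 2.5 to 1.03 for Itga1 and from 1.5 to 0.62 for Lamc1, and for Itgam from -2.83 to -2.51 (adjusted p = 1 for each). Leaving out Cdkn1b+/+ mature luminal library 2 brought the 10 calls to 5 (17.2% of all genes), Itga1, Itga5, Itgam, Itgb1 and Lamc1, and so did a contrast of Cdkn1b+/+ libraries only (11% of all genes).

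**Figure D2:**
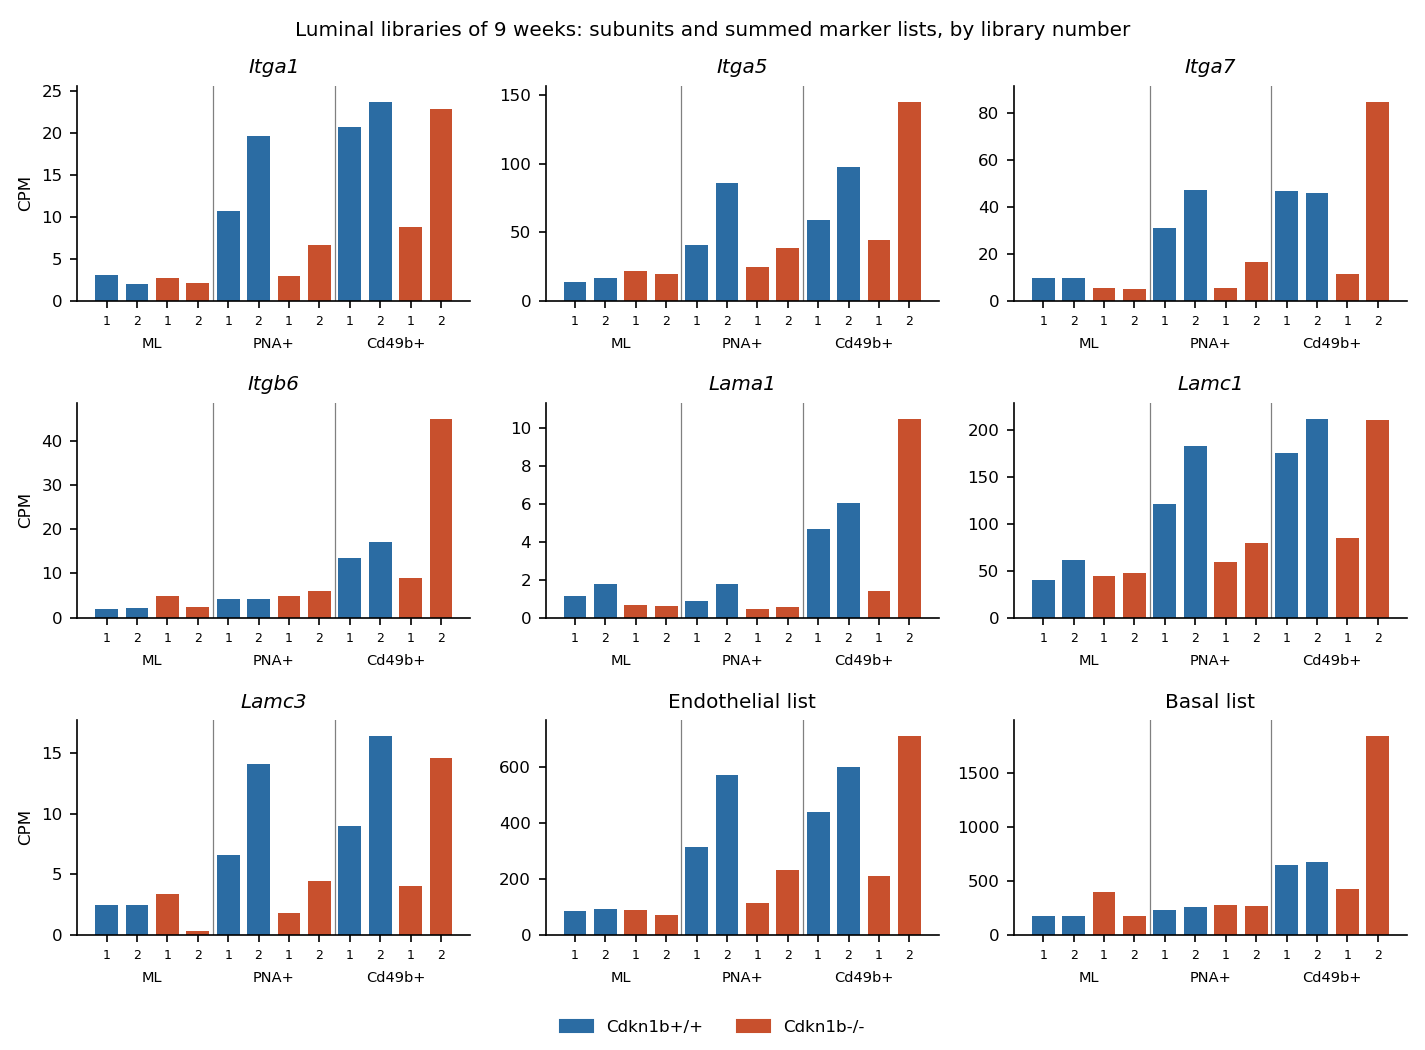
Level in each luminal library of 9 weeks (bars, CPM) of 7 subunits, of the 7 endothelial markers summed and of the basal markers summed, with mature luminal (ML), PNA+ and Cd49b+ libraries by number and genotype (colour). In mature luminal libraries Itga1 lay between 2.00 and 3.01 CPM, Lamc1 between 40.7 and 61 CPM and the endothelial sum between 71.2 and 91.9 CPM, with Cdkn1b-/- PNA+ library 1 inside the ranges of both genes (2.97 and 59.9 CPM), and Itgb6 and Lama1 peaked in Cdkn1b-/- Cd49b+ library 2, where the basal sum was 1839 CPM.

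The 8 LP libraries were fitted alone to compare Cd49b+ with PNA+ progenitors. None of 25 subunits and none of 11725 genes (0.0%) passed. At an unadjusted p under 0.05 there were 4 subunits, against 3.57% of all genes, and all 4 were higher in Cd49b+ cells. They were Lama1 (log2 fold change 2.81, SE 0.65), Itgb6 (2.11, SE 0.48), Lamb3 (1.83, SE 0.58) and Itga1 (1.17, SE 0.42), and each had an adjusted p of 1. Itgb6 held 13.6 and 17 CPM in Cdkn1b+/+ Cd49b+ and 8.94 and 44.9 CPM in Cdkn1b-/- Cd49b+ libraries, against 4.29, 4.29, 4.84 and 5.97 CPM in PNA+ libraries. The Cd49b+ libraries lay above all PNA+ libraries for Itgb6 alone (1.22% of all genes did so in either direction). The list of 8 basal markers summed to 420.4, 641, 668.6 and 1839 CPM in Cd49b+ and to 229.4, 259.3, 261.5 and 272.9 CPM in PNA+ libraries, and its part in these values was not tested. DESeq2 called 2 subunits here, Itgb6 and Lama1 (0.341% of all genes), and a fit with a block of genotype and number called 3, Itga1, Lama1 and Lamc3 (1.58% of all genes).

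No subunit passed between Cdkn1b-/- and Cdkn1b+/+ cells of 9 weeks. In basal cells none of 26 passed (0.0546% of all genes did) and none had an unadjusted p under 0.05 (9.09%), in mature luminal cells none passed (0.133%) and none had an unadjusted p under 0.05 (7.15%), and in LP none passed (3.4%) and 3, Itga4, Itgal and Itgb7, had an unadjusted p under 0.05 (18.3% of all genes), with lower values in Cdkn1b-/-. DESeq2 called none in the 3 populations, where it gave no p for Itgb6, Lama1 and Lamb3. A block of number alone called none, and a block of crossed numbers, tried after the data were seen, called 2 subunits in LP (10% of all genes). The log2 fold change of Itgb1 in LP was 0.01 with a 95% interval from -0.45 to 0.48, and in basal cells -0.03 with an interval from -0.69 to 0.63. PNA+ and Cd49b+ libraries of the same genotype and number deviated together (r = 0.718 in Cdkn1b-/- and 0.944 in Cdkn1b+/+). The LP test counts them as separate, so its intervals may be too narrow and its p-values too small. For Lamb3 the interval in basal cells ran from -1.76 to 2.12, so a change of several fold would not have been seen.

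Itga4 and Itgal, chains of leukocyte receptors, did not overlap between genotypes in LP, against 13.2% of all genes. Itga4 held 0.0888 to 0.998 CPM in Cdkn1b-/- and 0.999 to 2.45 CPM in Cdkn1b+/+ LP, a gap that is small beside the level of either group. The log2 fold changes were -1.45 for Itga4 and -1.27 for Itgal, with adjusted p-values of 0.157 and 0.141. Tests of whether the effect of genotype in LP differed from that in mature luminal or in basal cells called no subunit and no gene (0.0%), with 0 and 2 subunits at an unadjusted p under 0.05 (1.75% and 7.23% of all genes). Without Cdkn1b-/- Cd49b+ library 2, which held the highest endothelial sum and the highest basal sum of the luminal libraries, 3 subunits passed between genotypes in LP (9.45% of all genes), Itga1, Itga7 and Lamc1, all lower in Cdkn1b-/-, and 1, Itga7, passed in the test of LP against basal cells (0.962%). The part of the endothelial signal in these calls was not tested.

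**Figure D3:**
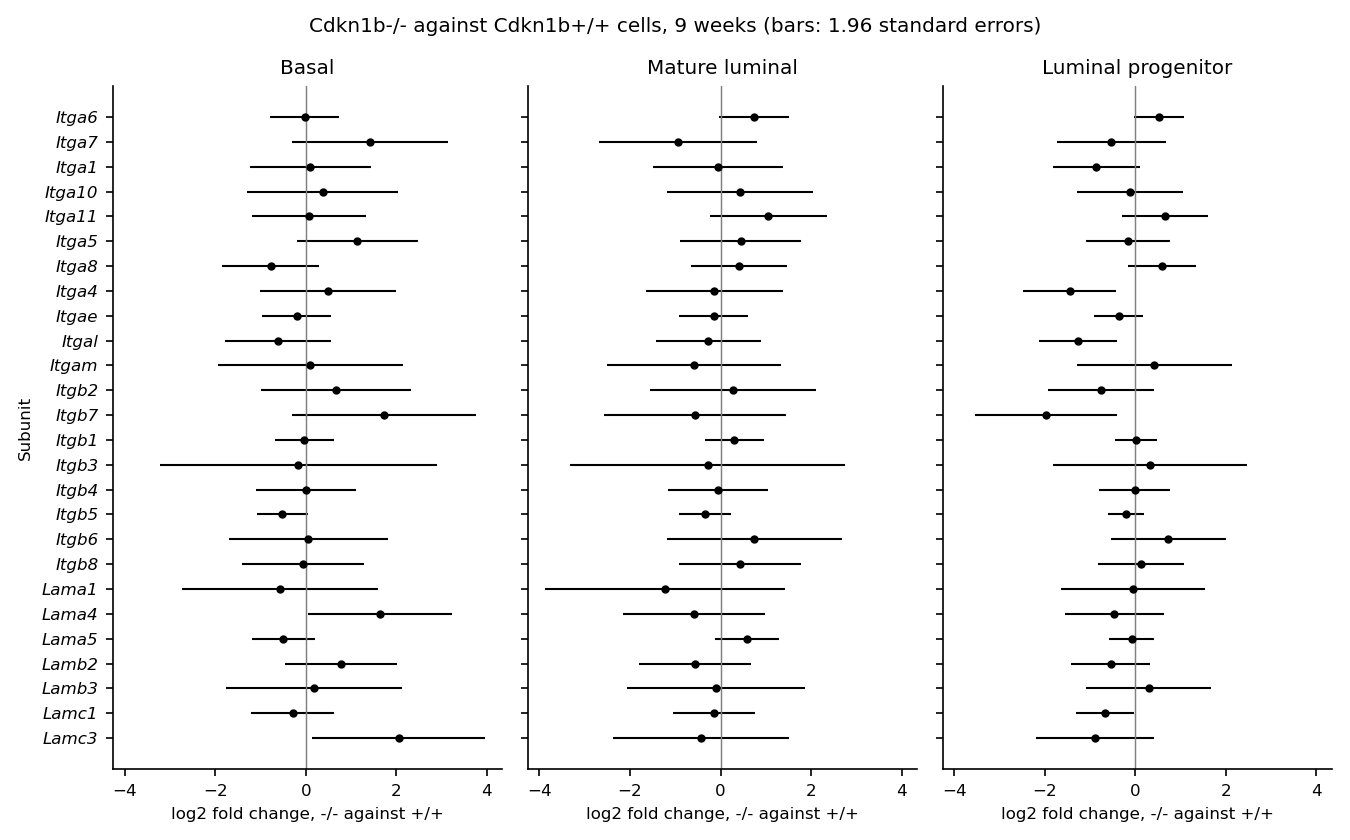
Log2 fold change of Cdkn1b-/- against Cdkn1b+/+ cells for the 26 subunits tested at 9 weeks, with bars of 1.96 standard errors, in basal, mature luminal and LP cells. No subunit passed an adjusted p of 0.05. In LP the bars of Itga4 (-1.45), Itgal (-1.27) and Itgb7 lay below 0.

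Itgb3, a vitronectin and fibrinogen receptor chain, differed between libraries of a genotype (it was chosen after its values were seen). Cdkn1b-/- libraries numbered 1 and Cdkn1b+/+ libraries numbered 2 held 10.3 to 25.5 CPM over the 4 populations, and Cdkn1b-/- libraries numbered 2 and Cdkn1b+/+ libraries numbered 1 held 0.524 to 6.44 CPM. Itgb8, chosen in the same way, held 9.26 to 23.4 CPM in the first set of libraries and 4.94 to 9.03 CPM in the other. For both genes the sets did not overlap, but genes and sets were chosen from these values, so this is a description and not a test. Libraries of 1 genotype and number deviated together, so the 4 populations do not count as separate evidence. Over all genes, libraries of the same number and the other genotype had negatively correlated deviations from their group means (Pearson's r from -0.474 to -0.189 across genes, which are not independent, with 4 distinct values, since the deviations of 2 libraries of a group mirror each other). What the numbers stand for is not given in the sources used here.

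At 4 weeks, basal cells were compared with undivided luminal cells. Of 26 subunits 15 passed, 14 higher in basal cells and 1 (Itgal) lower, where 35.1% of all genes passed, 20.3% higher and 14.8% lower. Lama1 held 44.6, 73.9, 74.6, 103 and 138 CPM in basal and 0 to 1.07 CPM in luminal libraries, with a log2 fold change of 8.68 (SE 0.75, adjusted p = 1.72e-06). Itga1 held 27.7, 67.6, 85.1, 89.3 and 113 CPM in basal and 0.111 to 0.757 CPM in luminal libraries (log2 fold change 7.32, SE 0.47, adjusted p = 2.04e-07). Both were far apart in every library. Itgb6 (3.64), Itga7 (3.09), Lamc1 (2.98), Lamb3 (2.83) and Itga6 (2.18) were higher as well. All 5 laminin alpha and gamma chains tested and Lamb3 rose in basal cells, and Lamb2 did not pass. Of these calls, that of Lama4 was lost in 7 of 15 alternatives, that of Lama5 in 5 and that of Lamc3 in 2. The populations overlapped for Lama4, Lama5 and Lamc3, and Lamc3 held only 0.0916 to 4.8 CPM in basal libraries. As with Lama1 and Itga1, the populations did not overlap for Itgb6, Itga7, Lamc1 and Lamb3, and 26.1% of all genes did not overlap. The 4 genes of a Schwann cell list summed to 491.1 to 1447 CPM in basal and 159.8 to 322.2 CPM in luminal libraries of 4 weeks, and fibroblast genes to 1145 to 6773 and 46.7 to 392.6 CPM. Both cell types express several of these subunits, and their part in the result was not tested. Itgb1 held 565.6, 1014, 1579, 1944 and 2216 CPM in basal and 307.1 to 857.5 CPM in luminal libraries, and Itga6 140.3, 258.5, 408.1, 445.7 and 617.4 CPM in basal and 44.7 to 148.9 CPM in luminal libraries. For both genes the lowest basal library, Cdkn1b-/- basal 1, lay within the luminal range. Itgb4 again overlapped, with 65.7 to 308.2 CPM in basal and 88 to 289.2 CPM in luminal libraries (log2 fold change 0.04, 95% interval -0.83 to 0.91). Without Cdkn1b+/+ basal library 3 the 15 calls came to 9 (32% of all genes), which did not include Itgb1.

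At 6 weeks 4 of 23 subunits passed, all higher in basal cells, where 5.65% of all genes passed and 3.49% were higher. They were Lama1 (log2 fold change 7.23, SE 0.96, adjusted p = 0.00355), Itga1 (5.42, SE 0.98, adjusted p = 0.0125), Lamb3 (3.02, SE 0.54, adjusted p = 0.0117) and Lamc1 (1.56, SE 0.37, adjusted p = 0.0375). Lama1 held 22.7, 24.1 and 24.7 CPM in Cdkn1b+/+ and 52.6 and 57.4 CPM in Cdkn1b-/- basal libraries, and 0.0697, 0.0767, 0.131 and 1.05 CPM in luminal ones. Itga1 held 18.8, 40, 40.9, 46.8 and 76.3 CPM in basal libraries. In luminal ones it was 0 and 0.0958 CPM in Cdkn1b+/+, and 4.46 and 34.1 CPM in the libraries labelled Cdkn1b-/-. For Lamc1 the populations overlapped, with 252.7 to 639.4 CPM in basal and 86.7 to 339.8 CPM in luminal libraries. Itgb1 held 667.3, 1059, 1435, 1746 and 2037 CPM in basal and 237.4, 506.3, 508 and 650.2 CPM in luminal libraries, which do not overlap, but did not pass (adjusted p = 0.0733). Without the 2 libraries that stood apart, 7 subunits passed (14.9% of all genes), with Itga6, Itgb1 and Itgb6 added to the 4. Without Cdkn1b+/+ luminal library 2 only Lama1 passed (2.66%), and without Cdkn1b-/- luminal library 1 there were 7 calls (16.9%).

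No subunit passed between genotypes at 4 or 6 weeks, where 0.0% of all genes passed in either population. Leaving out the library labelled Cdkn1b-/- luminal 1 of 4 weeks gave no call either. At 4 weeks none of the 26 in basal cells and 1 in luminal cells, Lama1, had an unadjusted p under 0.05 (2.57% and 3.6% of all genes). At 6 weeks there were 6 of 23 in basal cells, all higher in Cdkn1b-/- (8.99% of all genes), and 4 in luminal cells (16.4%). The 6 were Lama4, Itgb7, Itgb8, Itgb5, Itga8 and Itgb4, with log2 fold changes between 1.37 and 3.97 and adjusted p-values between 0.476 and 0.541. Itgb4 held 376.3 and 390.1 CPM in Cdkn1b-/- and 57.9, 198.9 and 218.8 CPM in Cdkn1b+/+ basal libraries, and the lowest was the library rich in Tyrobp. Marker sums moved with genotype in the same basal libraries: 2035 and 3055 CPM in Cdkn1b-/- against 72.6 to 558 CPM in Cdkn1b+/+ for the fibroblast list, 1224 and 2109 against 207.6 to 387 CPM for the Schwann cell list, and 8767 and 10460 against 4128 to 5522 CPM for the basal list. Their part in the 6 values was not tested. In luminal cells of 6 weeks the 4 were Itga1 and Itga4, with higher values in libraries labelled Cdkn1b-/-, and Lama5 and Itgb6, with lower ones (log2 fold changes -3.86 and -3.15, adjusted p = 0.129 and 0.254). Itga1 had an adjusted p of 0.124, and Itga4 held 0.558 and 3.41 CPM against 0 and 0. For both alpha chains the higher value was that of library 2, which held 3749 CPM of summed fibroblast and 1732 CPM of summed endothelial markers, against 104.7 and 150.3 in Cdkn1b-/- luminal library 1. DESeq2 called 2 subunits here, Itga1 and Lama5 (11.2% of all genes), and leaving out Cdkn1b-/- luminal library 1, which leaves only the library that stood apart, called 4 (17.9%). Without the 2 libraries that stood apart, none was called in luminal cells (0.233% of all genes) and 1, Itgb5, in basal cells (1.1%).

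Ages were compared within Cdkn1b+/+ cells in a fit of both ages. Age cannot be told apart from any other difference between the cohorts. In basal cells 3 of 26 subunits passed, 1 higher and 2 lower at 6 weeks (10.5% of all genes did, 4.82% higher and 5.68% lower). Itgb5 held 49.9, 55.3 and 56.8 CPM at 6 weeks and 227.9, 272.3 and 406.9 CPM at 4 weeks (log2 fold change -2.49, SE 0.60, adjusted p = 0.0159). Itgae, which pairs with Itgb7 in the receptor for E-cadherin, held 2.93, 3.63 and 5.26 CPM and 12.4, 16.5 and 22.2 CPM (log2 fold change -2.11, adjusted p = 0.0385). The ages did not overlap for either gene, but with 3 libraries of each age 8 subunits lay lower and 1 higher without overlap. The share of all genes that did so is not given here. Over the same libraries the basal list summed to 4128 to 5522 CPM at 6 weeks and 11930 to 12140 CPM at 4 weeks, and the fibroblast list to 72.6 to 558 and 1145 to 6037 CPM, and their part in these falls was not tested. Itgal was at 0 in all 3 libraries of 4 weeks and at 0.26, 0.549 and 3.2 CPM at 6 weeks, the last in the library rich in Tyrobp. In luminal cells 1 of 26 passed, higher at 6 weeks (3.1% of all genes, 1.19% higher). Lama5 held 269.4 and 898.5 CPM at 6 weeks and 21.5, 37.2 and 50 CPM at 4 weeks (log2 fold change 4.01, SE 0.69, adjusted p = 0.00647). Both libraries of 6 weeks lay above every library of 4 weeks, but with 2 against 3 libraries 6 subunits lay higher and 8 lower without overlap. The share of all genes is again not given. Lamb3 did not pass (13.8 and 30.6 against 21.9, 47.5 and 76.3 CPM). No call was left in luminal cells without Cdkn1b+/+ luminal library 1 of 6 weeks (0.00754% of all genes), and none in basal cells without Cdkn1b+/+ basal library 2 of 4 weeks (3.66%). Itgb5 was the 1 basal call left without Cdkn1b+/+ basal libraries 1 or 3 of 4 weeks, or basal library 3 of 6 weeks, and likewise without some libraries outside the contrast.

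**Figure D4:**
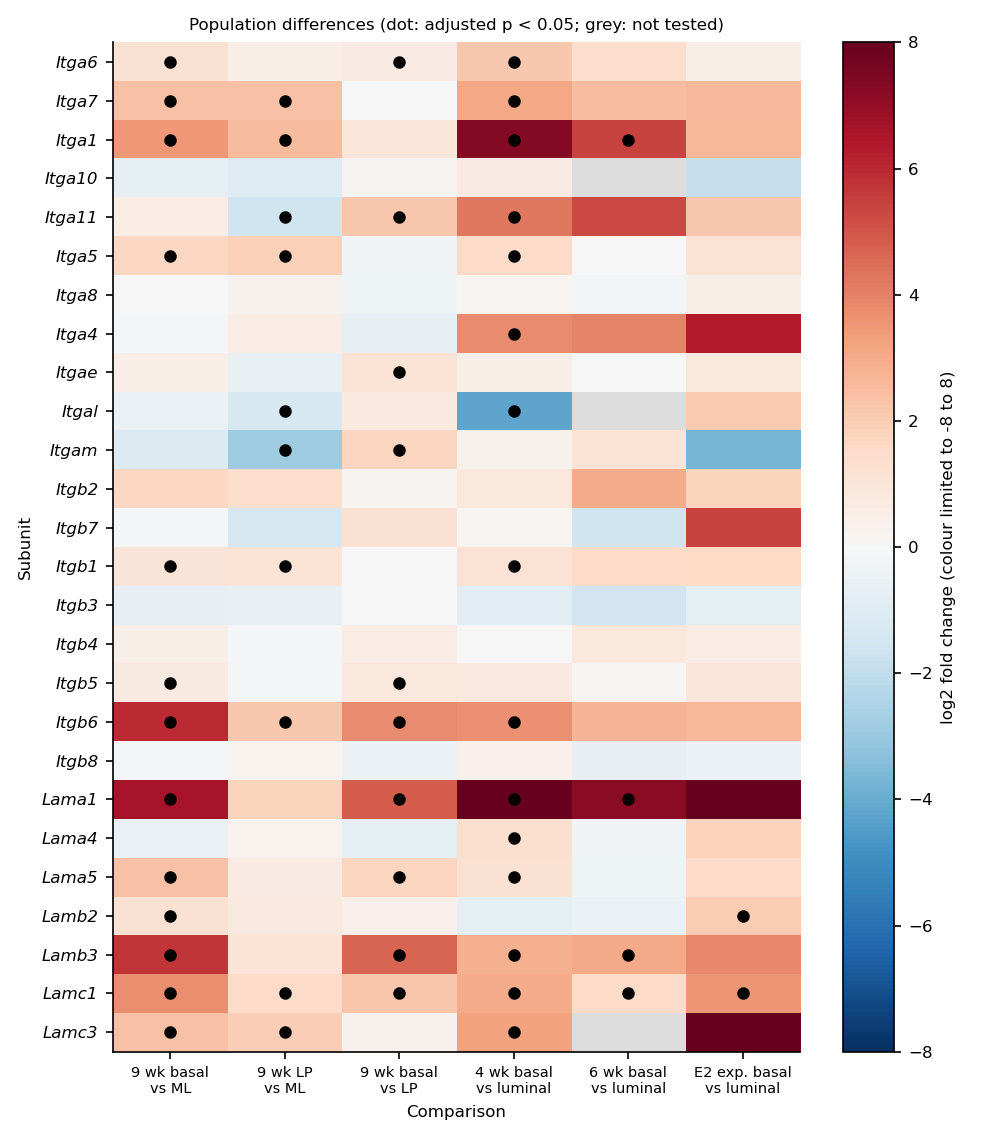
Log2 fold change (colour, limited to -8 and 8) of the 26 subunits tested, in rows, for the 6 comparisons of cell populations, in columns. Dots mark an adjusted p under 0.05 and grey cells were not tested. Lamc1 passed in all 6 comparisons, and Lama1 and Lamb3 passed in 4 of the 5 that set basal against luminal cells. The call of Lamc1 was lost in 4 of 14 alternatives at 6 weeks and in 3 of 17 in the E2 experiment.

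In the E2 experiment, 2 of 26 subunits passed between basal and luminal cells with strain and treatment in the fit, both higher in basal cells, where 0.525% of all genes passed and 0.255% were higher. Lamc1 held 456, 477, 571.2, 626.5, 628.2 and 794.2 CPM in the 6 basal libraries and between 23.1 and 138.8 CPM in the 6 luminal ones (log2 fold change 3.51, SE 0.34, adjusted p = 0.0115). Lamb2 held between 522.2 and 1965 CPM in basal and between 191.8 and 411.8 CPM in luminal libraries (log2 fold change 2.05, SE 0.36, adjusted p = 0.0387). Neither gene overlapped between the populations. Lama1 and Lamb3 had larger fold changes (10.06 and 3.86) but spread widely and did not pass (adjusted p = 0.119 and 0.223). Lama1 held 6.52, 10.1, 47.2, 86.5 and 94.5 CPM in 5 basal libraries and 0 in the first ACI E2 basal library, in which Itgb6 was 0.043 CPM. Without both libraries of that animal 5 subunits passed (4.36% of all genes). Leaving out single libraries gave between 0 and 3 calls, with none without the BN control luminal, the BN E2 basal or the BN E2 luminal library, and with Lamc1 alone without any of 6 others. Itgb1 held 1448 to 4486 CPM with a median of 2993 in basal and 524 to 1405 CPM with a median of 802.2 in luminal libraries, which did not overlap (adjusted p = 0.112).

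No subunit passed for E2 or for strain. E2 against control in luminal cells called none of 26 subunits and 0.0% of all genes, and 1 subunit had an unadjusted p under 0.05 (3.01% of all genes). This was Lamb3, with 63.4, 71.1 and 73.8 CPM after E2 and 0, 5.73 and 17.7 CPM in controls. The 3 values after E2 lay above all 3 controls (log2 fold change 4.11, SE 1.78, adjusted p = 1), as they also did for Itga8 and Itgb8. The share of all genes without overlap is not given here. In basal cells none was called (0.0%) and 2 had an unadjusted p under 0.05 (1.81% of all genes), Itga4 and Lamb2, both lower after E2. Itga4 held 11.8, 16.5 and 23.8 CPM in controls and 0, 0 and 0.293 CPM after E2. ACI against BN called none in luminal cells (0.0%) or basal cells (0.0%), with 1 subunit in each at an unadjusted p under 0.05 (3.38% and 1.15% of all genes). In luminal cells this was Lamc1, with 73.2, 92.5, 94.2 and 138.8 CPM in ACI and 23.1 and 33.4 CPM in BN (log2 fold change 1.84, SE 0.45, adjusted p = 0.807), and in basal cells Itgb2, a leukocyte chain, which was at 0 in all 4 ACI libraries and at 11.7 and 0.0465 CPM in the BN control and BN E2 libraries. That BN control library also held 121.6 CPM of summed myeloid and 19.3 CPM of summed lymphoid markers, against 3.38 to 14.8 and 0 to 0.392 CPM in the other basal libraries, and their part in this value was not tested. DESeq2 called 2 subunits between strains in luminal cells (3.91% of all genes) and none in the other 3 of these tests. With 1 BN library for each population and treatment, a change of several fold could go unseen: the interval of Lamb3 between strains in basal cells ran from -2.99 to 4.03.

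**Figure D5:**
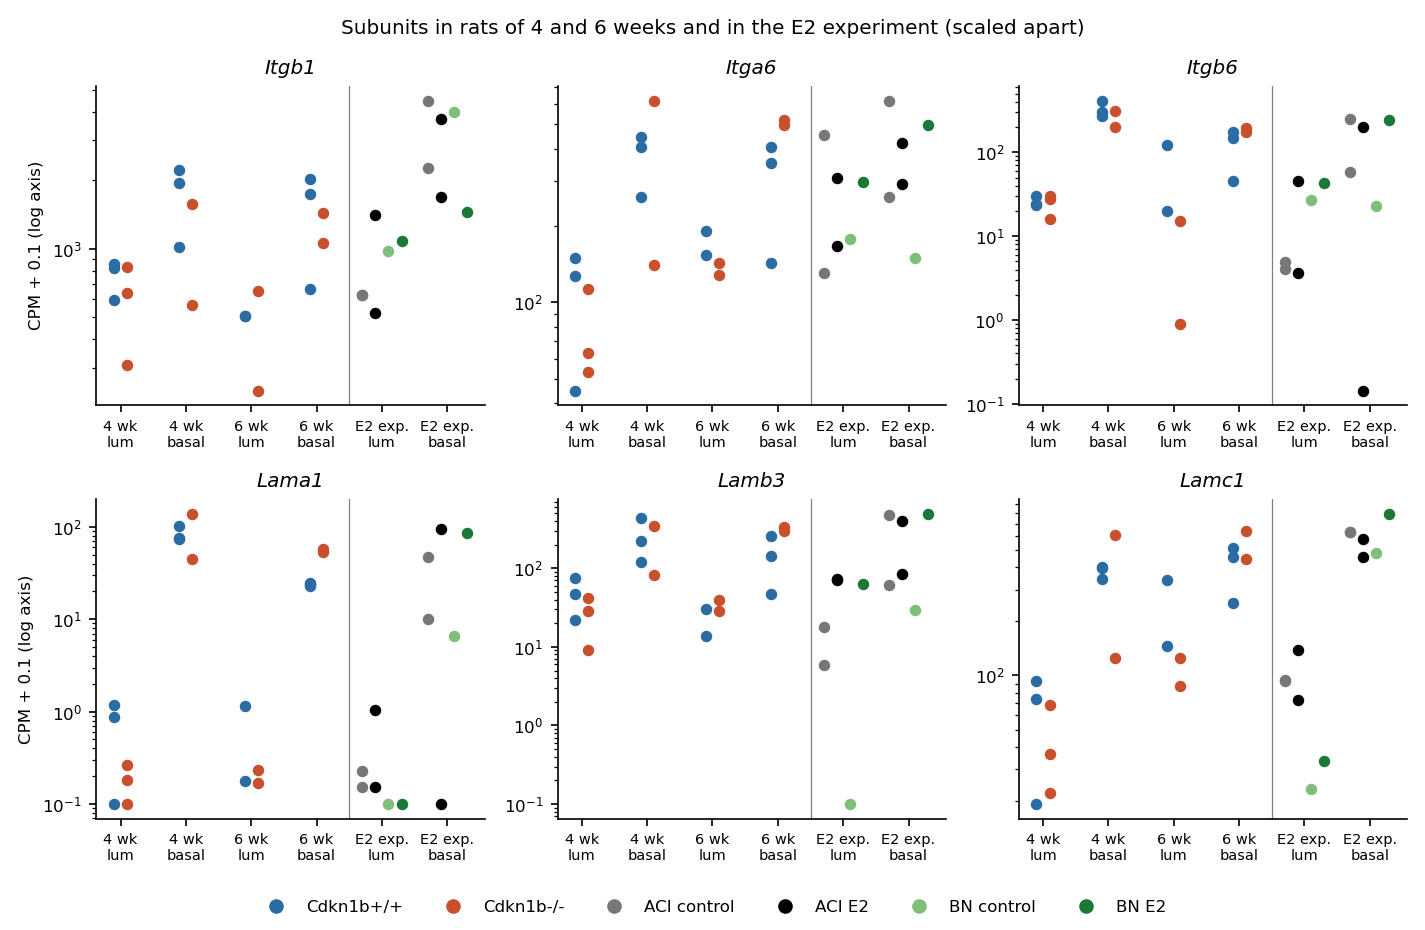
Level of 6 subunits (CPM with 0.1 added, log axis) in each luminal and basal library of 4 and 6 weeks and of the E2 experiment, coloured by genotype or by strain and treatment. The 2 experiments were scaled apart. Lama1 was near 0 in luminal libraries and between 22.7 and 138 CPM in basal libraries of 4 and 6 weeks, and 1 basal library of the E2 experiment was at 0 for Lama1.

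Other genes of the adhesion pathway came from a list of 36 matrix, hemidesmosome and focal adhesion genes, of which 30 were tested. Between basal and mature luminal cells of 9 weeks 17 were higher (20.4% of all genes) and none lower, and between basal cells and LP 16 were higher (27%) and 2 lower (23%). The hemidesmosome collagen Col17a1 led with a log2 fold change of 6.25 (SE 0.93, adjusted p = 0.000166), with the basement membrane collagen Col4a1 at 5.32 and the kindlin Fermt1, an activator of integrins, at 5.17. Of 17 focal adhesion genes, 13 were higher in basal than in mature luminal cells, among them the talin Tln1 (1.51), vinculin Vcl (2.75) and Tns3 (2.81). At 4 weeks 14 of 30 were higher in basal cells (20.3% of all genes), at 6 weeks 6 (3.49%), and in the E2 experiment 2, Col17a1 and Tns3 (0.255%). In Cdkn1b-/- LP 3 of 30 rose (2.12% of all genes) and none fell. These were Tnc, an adhesion-modulating matrix protein (log2 fold change 2.01, SE 0.29, adjusted p = 0.00347), Tns3, which links integrins to actin (1.51, SE 0.19, adjusted p = 0.00129), and Dag1, a laminin receptor that is not an integrin (1.12, SE 0.23, adjusted p = 0.0172). The LP test counts PNA+ and Cd49b+ libraries of the same genotype and number as separate although they deviated together, so these p-values may be too small. Tns3 rose in Cdkn1b-/- mature luminal cells too (1.77, SE 0.28, adjusted p = 0.025), as did 0.101% of all genes. No such gene passed between genotypes in basal cells.

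The 4 genes that carry an integrin symbol without being a subunit passed in none of the 22 comparisons. Itgb1bp1, which binds the tail of Itgb1, lay between 19.7 and 31.6 CPM over the 16 libraries of 9 weeks.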

How the data were processed

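RNA of sorted mammary cells was sequenced by the authors from SMARTer libraries, which carry no strand, aligned with STAR 2.5.1b to rn6 and counted per gene with HTSeq. Values are the deposited raw counts per gene. Reads not assigned to genes were 47.1% to 77.0% of a file's total and were left out. Multi-mapped reads of similar genes cannot be told apart. Each experiment was fitted with edgeR 4.0.16 (R 4.3.3; filterByExpr, TMM, quasi-likelihood F-test) over all genes, p-values adjusted by Benjamini-Hochberg and called under 0.05. Intervals are 1.96 standard errors wide on each side. Up to 6 called subunits of largest change with a mean log2 CPM above 2 were named in each comparison, beside Itgb1, Itga6, Itgb4 and Lamb3, and others named were chosen after their values were seen. A gene that the name rule matches stayed in the fits and is not reported here. Members and lists were chosen with earlier results of these data known. DESeq2 1.42.0, RLE scaling, no filter, smaller fits, left-out libraries and blocks were tried. The fit was tested on simulated data. Among 28 pairs of libraries of a group none was a duplicate. Libraries of 1 genotype and number at 9 weeks deviated together (12 distinct r from 0.369 to 0.944). Those of 1 animal code did so at 4 weeks (0.222 to 0.873) and less in the E2 experiment (0.192 to 0.213). At 6 weeks they shared little or no deviation (0.00873 to 0.141). The deposited peak lists were not used.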

Additional observations from a re-analysis of the deposited data

Results flagged for a closer look

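In the groups of 4 LP libraries, 8 of 45 groups of values had 1 library far from the other 3 by Dixon's test. Chance gives this in about 1 of 20 groups of independent, normal values. Here a group mixes PNA+ and Cd49b+ libraries on the CPM scale, and genes of a library are not independent. The 8 cases are therefore not separate findings, and the 2 rates are not compared. In Cdkn1b-/- LP it was Cd49b+ library 2 in all 7 cases, with 145 CPM of Itga5, 84.7 of Itga7, 44.9 of Itgb6, 10.5 of Lama1, 538 of Lamb2, 99.7 of Lamb3 and 211 of Lamc1. That library also held 1839 CPM of summed basal markers and 709.3 CPM of summed endothelial markers, and their part in these values was not tested. In Cdkn1b+/+ LP it was PNA+ library 1, with 31 CPM of Itga7 against 45.9 to 47.3 CPM in the others.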

How the results depend on the processing

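Calls of subunits at 9 weeks were 13 for basal against mature luminal cells (9 to 14 with 1 library left out, 8 from Cdkn1b+/+ libraries only), 10 for LP against mature luminal cells (5 to 12, 5 from Cdkn1b+/+ libraries only, 0 from Cdkn1b-/- PNA+ against Cdkn1b-/- mature luminal libraries, where no gene passed) and 10 for basal cells against LP (8 to 11). No called fold change changed sign. Between genotypes of 9 weeks the counts were 0 to 0 in basal and mature luminal cells, 0 to 3 in LP and 0 to 1 for LP minus basal. DESeq2 gave 11, 12 and 8 calls for the 3 comparisons of populations at 9 weeks. It set aside the p-values of Itgb6, Lama1 and Lamb3 in each comparison of those 16 libraries, which it does where 1 library is an outlier by Cook's distance, so it did not test these leading genes there. It gave 2 calls for Cd49b+ against PNA+, 7 for basal against luminal at 6 weeks, 2 for genotype in luminal cells of 6 weeks, 7 and 3 for age in basal and luminal cells, 8 for basal against luminal in the E2 experiment and 2 for strain in luminal cells. With no filter the counts at 6 weeks were 7 for basal against luminal and 1 for genotype in luminal cells, and without the 2 libraries that stood apart 7 and, for genotype in basal cells, 1. Left-out libraries gave 9 to 15 calls at 4 weeks, 1 to 7 at 6 weeks, 0 to 4 for genotype in luminal cells of 6 weeks, 0 to 5 and 0 to 1 for age in basal and luminal cells, and 0 to 3 for the E2 experiment (5 without the first ACI E2 animal). Causes were not tested. The share of all genes that passed also changed from fit to fit and is not given beside every count here. A change in these counts is therefore not read as a result about the subunits. Fits of the compared libraries alone were not made where a contrast uses every library.

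With a replicate block of genotype and number, calls at 9 weeks came to 15 (basal against mature luminal), 15 (LP against mature luminal), 14 (basal against LP) and 3 (Cd49b+ against PNA+). With the animal code as the block there were 16 at 4 weeks, 6 at 6 weeks and 1 in the E2 experiment. A block can also change the share of all genes that pass, so higher counts are not a result about the subunits. A block of number alone, which pairs the genotypes, called 0. The crossed pairing of numbers, added after the data were seen, called 2 subunits in LP and 0 in basal and mature luminal cells. No paired analysis was possible for genotype at 4 and 6 weeks, age, E2 or strain because those groups come from different animals.

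The small differences of Itgb1 changed sign with 1 library left out, from -0.12 to 0.0843 for basal over LP, and for genotype from -0.25 to 0.16 in basal, -0.11 to 0.64 in mature luminal and -0.11 to 0.13 in LP cells. They also did for basal over LP from Cdkn1b+/+ libraries only (0.00726) and for genotype from LP libraries alone (-0.0417). None of these passed.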
